A study of Mus musculus with 13 samples.

Results

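Aminoacyl-tRNA synthetases are the enzymes that load each amino acid onto its transfer RNA. Their genes were taken by symbol from the deposited RNA table, and the symbol pattern found 38 of the 11761 listed genes. Of these, 20 code for cytosolic enzymes and 17, with symbols ending in 2, for mitochondrial enzymes. Tarsl2 also ends in 2 but codes for a relative of the cytosolic threonine enzyme, so it was kept apart. The RNA came from adipocytes of epididymal white fat of Adipoq-NuTRAP mice on the C57BL/6J background. All 6 RNA libraries carried this transgene, and the mice were fed chow (3 libraries) or a high-fat diet (HFD, 3 libraries) for 10 weeks. In these mice the adiponectin promoter drives Cre, which switches on a GFP-tagged ribosomal protein in adipocytes. An antibody against GFP then pulls ribosomes and their RNA out of a homogenate of the whole fat pad (translating ribosome affinity purification, TRAP). The sources used here give neither the age and sex of the mice nor the composition of the HFD. The series title asks how obesity alters adipocyte identity, and setting HFD against chow puts that question to the synthetase genes.

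As background, a cell needs a charged transfer RNA for every amino acid in 2 places. Cytosolic enzymes charge transfer RNAs for the proteins made from nuclear genes. A separate set, coded in the nucleus and imported, charges transfer RNAs inside mitochondria, where the core subunits of the respiratory chain are made. A few genes serve more than 1 role: Gars and Kars code for the glycine and lysine enzymes of both compartments, Eprs joins the glutamate and proline enzymes in 1 protein, and Farsa and Farsb are the subunits of the cytosolic phenylalanine enzyme. Several cytosolic enzymes sit together in the multisynthetase complex. Many cytosolic synthetase genes are known targets of ATF4, the transcription factor of the amino acid and integrated stress responses.

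The values are CPM, each gene's read count scaled by an effective size of its library, which need not equal its number of reads. The effective sizes, read from the steps between low values, ran from 7420000 in chow replicate 3 to 39380000 in HFD replicate 3, and every member had at least 66 reads in every library. Whether each replicate is its own animal is not stated in the labels, so the p-values rest on the spread among these libraries, which may be technical. Adipocyte markers were abundant in both diets, with a summed level over 9 genes of 18468 to 25917 CPM in chow and 18135 to 20702 CPM in HFD, and of these 5 fell (2 without HFD replicate 2 or HFD replicate 3) and 1, Lep, rose. Markers of other cells moved with the diet: 11 of 12 macrophage genes rose (summed level 79.5 to 104 CPM in chow and 301 to 468 CPM in HFD), as did 7 of 8 endothelial genes (26.9 to 70.2 against 133 to 252 CPM) and 6 of 6 tested smooth muscle and pericyte genes (88.7 to 105 against 531 to 924 CPM). Of 8 fibroblast genes 3 rose (1487 to 2513 against 1331 to 2812 CPM), and of 6 mesothelial genes 2 rose (18.6 to 30.5 against 40.9 to 132 CPM). Leaving out 1 library gave 5 fibroblast rises without HFD replicate 2, and 0 to 3 mesothelial rises, with 0 without chow replicate 3, 1 without HFD replicate 2, HFD replicate 3 or chow replicate 2, and 0 also with voom weights or quantile normalization. The part of these other cells in the results below was not tested, and in such bulk samples fewer cells of a type and less RNA per cell cannot be told apart.

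The counts of the diet comparison differed between the compartments, a difference that was not tested. Of the 17 mitochondrial synthetase genes, 7 fell in HFD, 0 rose and 10 did not pass the test. These 7 genes were Pars2, Vars2, Hars2, Iars2, Ears2, Mars2 and Nars2. Without HFD replicate 2, or without HFD replicate 3, 3 of them were called, Hars2, Iars2 and Pars2 in both cases. Of the 20 cytosolic genes, 1 rose (Cars), 1 fell (Aars) and 18 did not pass. A gene passed at a Benjamini-Hochberg adjusted p under 0.05 with limma, adjusted over the 11643 genes tested, and fold changes are HFD minus chow on the scale of log2(CPM + 1). Over all tested genes 16.0% were called lower, 19.1% higher and 35.1% in either direction. Whether the share of either set differs from that of all genes was not tested. At an unadjusted p under 0.05, limma gave 10 mitochondrial genes, 0 of them higher, and 5 cytosolic genes, where 45.6% of all genes reached it, 21.6% lower in HFD.

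The median log2 fold change was -0.46 over the mitochondrial genes, 0.02 over the cytosolic genes and -0.004 over all genes tested. Of the 17 mitochondrial genes 16 had a fold change below 0, the exception being Rars2 at 0.04, where 50.4% of all genes lay below 0. In 11 of the 17 every HFD library lay below every chow library, against 25.0% of all genes. The cytosolic genes were evenly divided, 10 below and 10 above 0, with 3 genes entirely lower in HFD and 3 entirely higher, the latter against 25.2% of all genes. Counting Tarsl2 (-0.09) with the genes ending in 2 would make 18 genes, again 7 fallen, with a median of -0.45.

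The deposited scaling keeps the median of all genes near 0, and these directions are relative to that median. Scaling each library to its median adipocyte marker moved the median of all genes to 0.42, and 91.2% of called genes were then higher, against 54.4% with the deposited scaling. Under that scaling 4701 genes were called higher and 451 lower in all, where 11643 genes were tested with the deposited scaling. The 91.2% is thus a share of calls and not of genes tested. Among mitochondrial members Pars2 alone still fell (-0.82, limma adjusted p = 0.0167), and of the cytosolic genes 11 rose and 0 fell. Equal totals over the listed genes moved the median to 0.10, with 65.3% of calls higher, and quantile normalization gave 46.4%. The median of the mitochondrial synthetase genes minus that of all genes was -0.45 with the deposited scaling and -0.45 under each of these 3 others, and -0.37 without chow replicate 3. Marker scaling and equal totals multiply each library by a single factor, which shifts all genes nearly alike. This difference could therefore hardly move under them, and its agreement there is no test of the result.

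**Figure D1:**
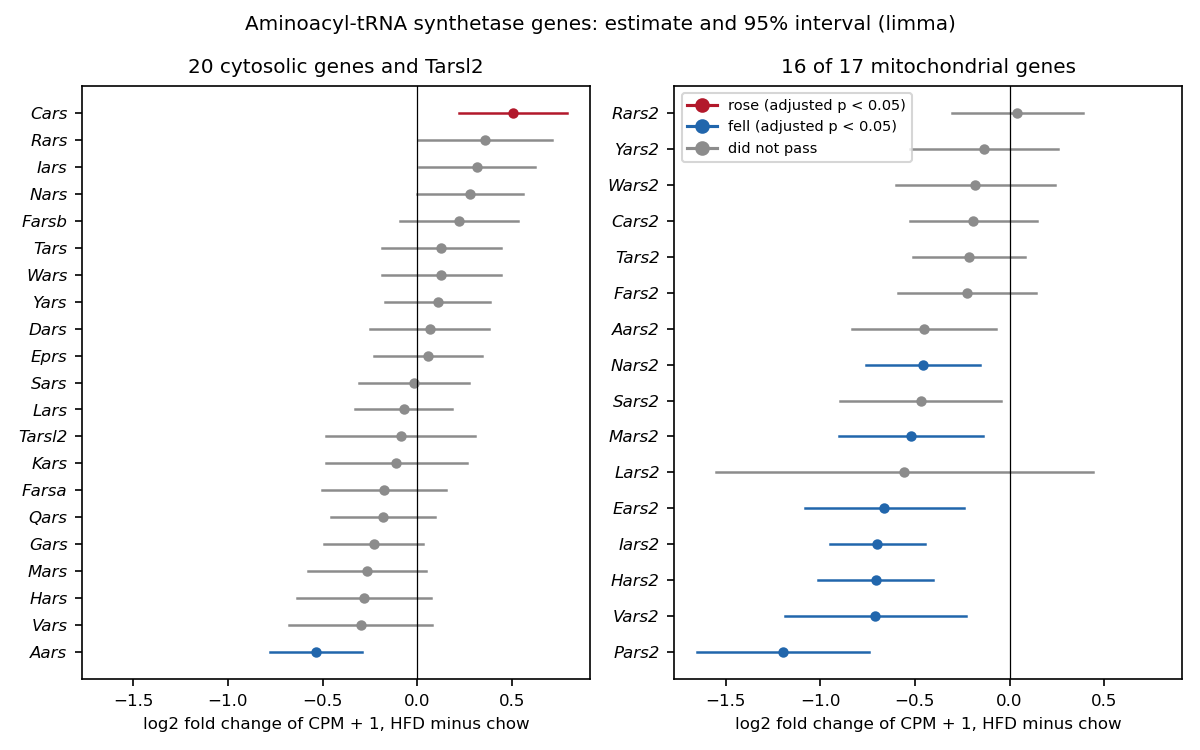
Log2 fold change of CPM + 1, HFD minus chow, for each synthetase gene (points) with its 95% interval (lines), cytosolic genes and Tarsl2 on the left and 16 mitochondrial genes on the right. Cytosolic points lie on both sides of 0 with a median of 0.02, while 15 of the 16 mitochondrial points shown lie below 0, the median over all 17 being -0.46.

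Pars2, the mitochondrial proline enzyme (chr4:106651069-106655282, build GRCm38.p6, as for the positions below), had the lowest fold change of the family. Its level was 10.4, 8.17 and 8.88 CPM in chow libraries 1, 2 and 3 and 3.81, 3.46 and 3.01 CPM in HFD libraries 1, 2 and 3. Every HFD library lay below every chow library, and the mean was 2.67-fold lower in HFD. The log2 fold change was -1.20 ± 0.20 (SE, n = 3 per diet), with a limma adjusted p of 0.0019, and the call held without any single library.

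Iars2, which loads isoleucine in mitochondria (chr1:185286642-185329419), stood at 217, 217 and 214 CPM in chow and at 132, 125 and 141 CPM in HFD. The chow libraries nearly coincided, and the HFD libraries lay well below them, a log2 fold change of -0.70 ± 0.11 (limma adjusted p = 0.00142). Hars2, the mitochondrial histidine enzyme on chromosome 18, stood at 48.8, 44.3 and 50.9 CPM in chow and at 31.3, 29.7 and 26.2 CPM in HFD. Its diets did not overlap either, and its log2 fold change of -0.71 ± 0.14 (limma adjusted p = 0.00372) was close to that of Iars2. Both calls held without any single library and, of the settings tried, were lost only under scaling to the adipocyte markers (-0.25, limma adjusted p = 0.232, and -0.27, limma adjusted p = 0.207).

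Vars2 and Ears2, the mitochondrial valine and glutamate enzymes, fell with a wider spread. Vars2 (chr17:35655634-35667639) was at 35.8, 30.1 and 47.8 CPM in chow and at 28.4, 18.1 and 21.7 CPM in HFD (log2 fold change -0.71 ± 0.21, limma adjusted p = 0.0287). Ears2 (chr7:122034162-122067094) was at 28.1, 25.6 and 39.4 CPM in chow and at 20.1, 16.6 and 20.3 CPM in HFD (-0.66 ± 0.19, limma adjusted p = 0.0218). Chow replicate 3, the smallest library, was the highest for both genes, and for both the diets did not overlap. The Vars2 call was lost without HFD replicate 2 (limma adjusted p = 0.103), HFD replicate 3 (0.0838) or chow replicate 3 (0.0813). The Ears2 call was lost without HFD replicate 2 (0.0795) or HFD replicate 3 (0.0502).

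Mars2 and Nars2, which load methionine and asparagine in mitochondria, were the fallen genes with the smallest fold changes. Mars2 (chr1:55237177-55240058) was at 12.3, 12.1 and 12.0 CPM in chow and at 7.67, 9.25 and 7.67 CPM in HFD, a log2 fold change of -0.52 ± 0.17 (limma adjusted p = 0.0388). Nars2 (chr7:96950839-97064758) was at 27.3, 28.1 and 26.5 CPM in chow and at 19.6, 19.3 and 20.0 CPM in HFD, a log2 fold change of -0.46 ± 0.13 (limma adjusted p = 0.0251). Within each diet the libraries lay close together, and the diets did not overlap. With a library left out, the Mars2 call was lost in each of the 6 cases (limma adjusted p 0.0503 to 0.139), and the Nars2 call in all cases but that without chow replicate 3 (0.0252 to 0.0851). Equal totals over the listed genes also ended both calls (limma adjusted p = 0.11 for Mars2 and 0.104 for Nars2).

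**Figure D2:**
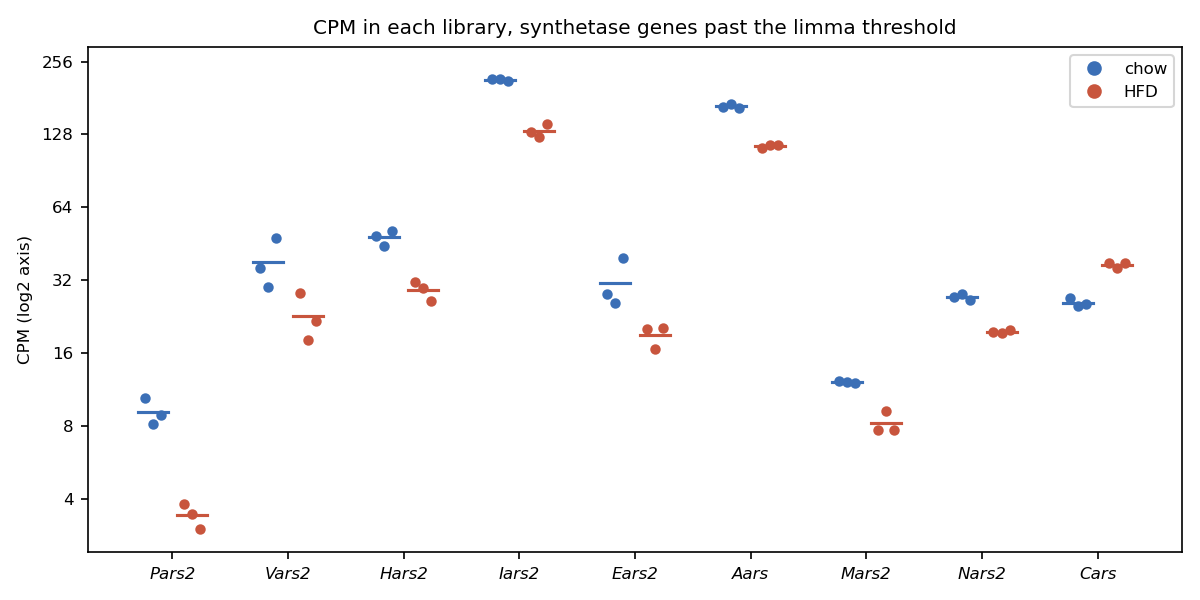
CPM in each library on a log2 axis for the 9 synthetase genes past the limma threshold, chow in blue and HFD in red, with the diet mean as a bar. The diets do not overlap for any of the 9; Cars is the gene higher in HFD, and Pars2 has the widest gap, 2.67-fold.

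The other mitochondrial genes did not pass. Sars2 (log2 fold change -0.47, limma adjusted p = 0.0816) and Aars2 (-0.45, 0.0659), the serine and alanine enzymes, came nearest to the threshold. Fars2, Tars2, Cars2, Wars2 and Yars2 had fold changes of -0.22 to -0.14, and Rars2, the arginine enzyme, 0.04 ± 0.15. The library kit keeps no record of strand, so reads cannot be told apart wherever exons of 2 genes overlap. Among called members, Hars2 shares 4 bases with Hars and Iars2 115 bases with Rab3gap2.

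Lars2, the mitochondrial leucine enzyme, had the widest spread of the family. Its chow libraries held 234, 350 and 1038 CPM and its HFD libraries 256, 362 and 288 CPM. A single library, chow replicate 3, was far above the other 5, which overlapped between diets. The log2 fold change was -0.56 ± 0.44 (limma adjusted p = 0.359), and without that library it was 0.06. Residual ribosomal RNA, listed as Rn45s, was also highest there, at 23170 CPM against 4068 to 12503 CPM in the other libraries. The next highest Lars2 value, in HFD replicate 2, was in the library with the lowest Rn45s. The part of ribosomal RNA in the Lars2 value was not tested.

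Because Lars2 dominates the mitochondrial total in 1 library, the summed level was taken over the other 16 mitochondrial genes. That sum was 611, 612 and 638 CPM on chow against 445, 427 and 440 CPM on HFD. Every HFD library lay below every chow library, and the mean went from 620 ± 15.5 to 437 ± 9.20 CPM (SD, n = 3 per diet), a change of -29.5%. Iars2 alone made up a mean of 216 CPM of this sum in chow and 133 CPM in HFD, so the change rests in large part on that gene. The summed level of the 20 cytosolic genes was 1726, 1893 and 1852 CPM on chow against 1682, 1876 and 1802 CPM on HFD. The cytosolic sums overlapped, with means of 1824 ± 87.2 and 1787 ± 98.0 CPM. For every 100 CPM of cytosolic synthetase RNA there were 35.4, 32.3 and 34.5 CPM of mitochondrial synthetase RNA without Lars2 in chow and 26.5, 22.8 and 24.4 CPM in HFD.

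**Figure D3:**
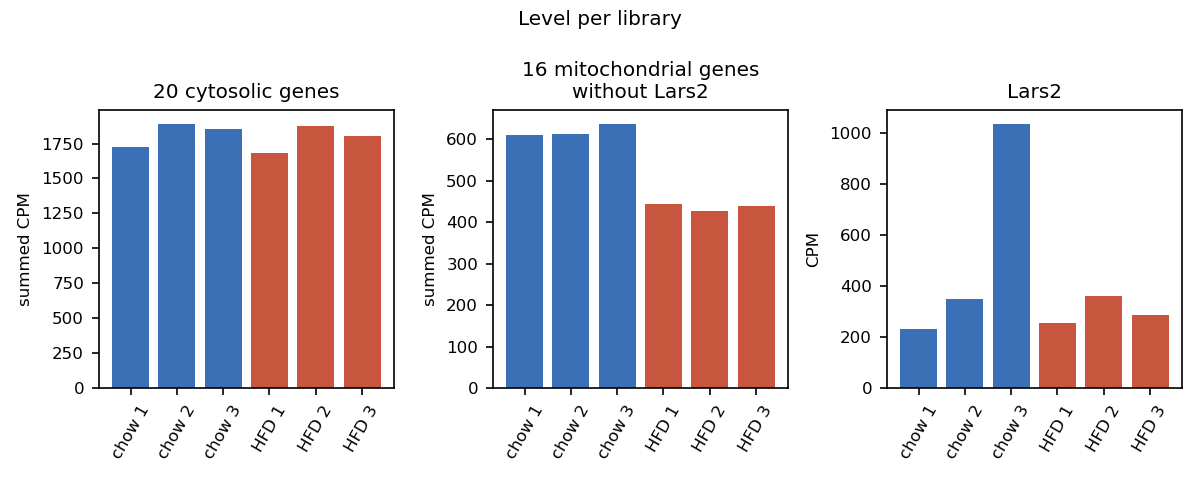
Summed CPM per library of the 20 cytosolic genes (left), of the 16 mitochondrial genes without Lars2 (middle) and CPM of Lars2 (right), chow in blue and HFD in red. The cytosolic sums overlap between diets, the mitochondrial sums are 611 to 638 CPM in chow and 427 to 445 CPM in HFD, and Lars2 reaches 1038 CPM in chow replicate 3 alone.

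Genes that work with the mitochondrial synthetases were examined as fixed lists. Of the list of 4 factor genes that serve the mitochondrial ribosome, 3 fell and the list's median was -0.59, where 16.0% of all genes were called lower. Tufm, the factor that carries the charged transfer RNA, was at 16.7, 21.1 and 20.7 CPM in chow and at 11.4, 12.7 and 10.9 CPM in HFD (log2 fold change -0.69, limma adjusted p = 0.0108). Tsfm, its exchange factor, had a log2 fold change of -0.79 (limma adjusted p = 0.0194), and Gfm2, a factor that recycles ribosomes, one of -0.50 (0.0132). Gfm1, which moves transfer RNA along the ribosome, did not pass (-0.24). Without HFD replicate 3 none of these passed (limma adjusted p = 0.0506, 0.0534 and 0.0609 for Tufm, Tsfm and Gfm2), without HFD replicate 1 Tsfm did not (0.0612), and under scaling to the adipocyte markers 0 of the 4 fell. Of the 4 tested cytosolic elongation factor genes 0 rose and 0 fell in the limma fit, with 0.109 as the adjusted p of Eef1a1 (-0.31), and their median was -0.11. Over all tested genes 35.1% were called in either direction.

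Mitochondria lack an enzyme that loads glutamine directly: Ears2 first loads glutamate, which an amidotransferase then turns into glutamine. While Ears2 fell, the genes of the amidotransferase subunits Gatb, Gatc and Qrsl1 did not pass, with fold changes of 0.03, 0.27 and 0.03. Mtfmt, which formylates the initiator methionine after Mars2 has loaded it, fell from 11.7, 11.6 and 15.3 CPM in chow to 8.51, 8.69 and 8.63 CPM in HFD (-0.52, limma adjusted p = 0.0466). That call was lost without any of the 6 libraries (0.0641 to 0.127) and with equal totals (0.0898), voom weights (0.0544) and scaling to the adipocyte markers (0.685). Of 6 genes of transfer RNA maturation and editing, Dtd1, which removes D-amino acids from transfer RNA, fell (-0.67, limma adjusted p = 0.00758), as did Aarsd1, an editing factor for alanine transfer RNA (-0.48, 0.0292). Over all tested genes 16.0% were called lower. The Aarsd1 call was lost with equal totals (0.0599) and in 5 of the 6 cases with a library left out, all but that without chow replicate 2. Under scaling to the adipocyte markers neither Dtd1 (-0.24, limma adjusted p = 0.344) nor Aarsd1 (-0.03, 0.879) passed. Xpot, the exporter of transfer RNA from the nucleus, had a fold change of 0.17 (limma adjusted p = 0.315).

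The 66 mitochondrial ribosomal protein genes gave 0 rises and 16 falls, against 16.0% of all genes called lower, with a median fold change of -0.22. The difference between this group and the mitochondrial synthetases (7 of 17, median -0.46) was not tested. The count of falls among ribosomal protein genes went down to 6 without HFD replicate 3, 8 without HFD replicate 1 and 9 with equal totals. Under scaling to the adipocyte markers 6 of them rose and 1 fell, where, of all genes, 4701 were called higher and 451 lower.

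Among the cytosolic genes, Aars, the alanine enzyme (chr8:111027778-111055569), was the one that fell. The chow libraries held 167, 171 and 164 CPM of it and the HFD libraries 113, 116 and 116 CPM. Libraries of the same diet differed little, the diets did not overlap, and the log2 fold change was -0.54 ± 0.11 (limma adjusted p = 0.00478). The call held without any single library, but not under scaling to the adipocyte markers (-0.09, limma adjusted p = 0.683). Aars shares 3974 bases of its gene span with Ddx19b, an RNA helicase gene that fell too (-1.30, limma adjusted p = 0.000656), and reads from shared exons could not be told apart.

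Cars, the cysteine enzyme (chr7:143557230-143600090), was the synthetase gene that rose. Levels were 26.9, 25.1 and 25.5 CPM on chow against 37.8, 35.8 and 37.5 CPM on HFD. All HFD libraries were above all chow libraries, with a mean 1.43-fold higher and a log2 fold change of 0.50 ± 0.13 (limma adjusted p = 0.0136). The call held under the 3 other scalings and was lost without HFD replicate 3 (0.0649). Its mitochondrial counterpart Cars2 did not pass (-0.19).

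Next in size above 0 were Rars (log2 fold change 0.36, limma adjusted p = 0.108), Iars (0.32, 0.0995) and Nars (0.28, 0.109), the arginine, isoleucine and asparagine enzymes. None of these 3 passed, although for Iars and Nars every HFD library lay above every chow library. Below 0, Vars (-0.30), Hars (-0.28) and Mars (-0.27), which load valine, histidine and methionine, did not pass either. Mars shares 71 bases with Ddit3, a stress gene of the ATF4 list that rose, and Wars 24 bases with Wdr25.

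None of the enzymes that serve both compartments, or more than 1 amino acid, passed the test. Gars, the glycine enzyme, was at 114, 123 and 119 CPM in chow and at 92.4, 106 and 105 CPM in HFD, where the diets did not overlap but the test was not passed (-0.23 ± 0.12, limma adjusted p = 0.154). Kars, the lysine enzyme, was at 64.0, 91.8 and 70.0 CPM in chow and at 62.7, 79.9 and 64.9 CPM in HFD, overlapping widely (-0.11 ± 0.17). Eprs was at 286, 336 and 298 CPM in chow and at 288, 333 and 336 CPM in HFD, again overlapping (0.06 ± 0.13). Thus the bifunctional glutamate and proline gene did not pass, while Ears2 and Pars2, which do its work in mitochondria, fell.

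Qars, the glutamine enzyme, was at 78.3, 92.4 and 86.8 CPM in chow and at 74.5, 79.9 and 72.0 CPM in HFD (-0.18 ± 0.12, limma adjusted p = 0.277). Wars, the tryptophan enzyme and a well-known interferon-responsive gene, was at 50.2, 59.7 and 46.5 CPM in chow and at 53.1, 62.3 and 55.3 CPM in HFD (0.13 ± 0.14, limma adjusted p = 0.51). Both genes overlapped between diets.

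The subunit genes of the cytosolic phenylalanine enzyme leaned in opposite directions without passing. Farsa was at 30.5, 27.3 and 33.1 CPM in chow and at 29.7, 25.6 and 24.8 CPM in HFD (-0.18 ± 0.15), and Farsb at 54.2, 61.8 and 55.0 CPM in chow and at 59.3, 76.6 and 64.5 CPM in HFD (0.22 ± 0.14). The log2 ratio of Farsb to Farsa was 0.40 higher in HFD, and the ratios overlapped between diets (exact two-sided permutation test over the 6 libraries, p = 0.2).

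Of the 8 genes of the multisynthetase complex (Eprs, Lars, Iars, Mars, Qars, Rars, Kars and Dars), 0 rose and 0 fell in the limma fit, with a median of -0.01. Over all tested genes 35.1% were called in either direction, and the difference from that share was not tested. At an unadjusted p under 0.05 the fit held Iars and Rars, where 45.6% of all genes reached it. Under scaling to the adipocyte markers 4 of the 8 rose and 0 fell, where, of all genes, 4701 were called higher and 451 lower. Of the 3 scaffold proteins of the complex, Aimp2 rose, from 12.3, 12.1 and 11.2 CPM in chow to 16.6, 20.3 and 17.9 CPM in HFD (0.58 ± 0.16, limma adjusted p = 0.0191). The Aimp2 call was lost without HFD replicate 2 (0.0756), without HFD replicate 3 (0.0686) and with quantile normalization (0.0614). Aimp1 (0.03) and Eef1e1 (0.30, limma adjusted p = 0.226) did not pass, where 19.1% of all genes were called higher.

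Synthetases fall into 2 unrelated structural classes, each represented in both compartments. Of the class I genes, 4 of 9 mitochondrial members fell (median -0.52), while 1 of 9 cytosolic members rose and 0 fell (median 0.11). Of the class II genes, 3 of 8 mitochondrial members fell (median -0.45), and 1 of 10 cytosolic members fell (median -0.06). Eprs, which joins 2 enzymes, was counted in neither class. Over all tested genes 16.0% were called lower and 19.1% higher, and the classes were not tested against that share.

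To set the compartments side by side for the same amino acid, each mitochondrial gene was divided by its cytosolic counterpart within each library, with Eprs as the counterpart of both Ears2 and Pars2. For Fars2 the counterpart was Farsa. The other subunit gene, Farsb, leaned the other way and was not set against Fars2. Gene lengths were not available, so the ratio itself has no meaning as a relative amount and its difference between diets is the quantity given. The mean log2 ratio was lower in HFD for 16 of 17 pairs, with a median difference of -0.41. For 10 pairs every HFD ratio lay below every chow ratio, and for 0 pairs above. The share over other pairs of genes was not computed. Of single genes, 25.0% lay entirely lower in HFD and 25.2% entirely higher. The ratios reuse the values of the mitochondrial genes described above and add no separate evidence. With 3 libraries against 3 the exact two-sided permutation test cannot go below p = 0.1. The 10 pairs without overlap reached that exact p, and no pair passed after adjustment over the 17 (smallest adjusted value 0.17 from the exact test).

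The isoleucine pair was among those without overlap, and no pair passed after adjustment. The log2 ratio of Iars2 to Iars was 2.61, 2.50 and 2.73 in chow and 1.70, 1.52 and 1.58 in HFD, a difference of -1.01. The proline pair, Pars2 to Eprs, differed by -1.25, the asparagine pair by -0.73, the glutamate pair by -0.72 and the cysteine pair by -0.70. For cysteine the cytosolic gene was the one called, whereas for proline, glutamate, isoleucine and asparagine it was the mitochondrial gene. The alanine pair was the exception, with a difference of 0.08 (exact permutation p = 0.7): Aars fell, and Aars2 had a fold change of -0.45 without passing.

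**Figure D4:**
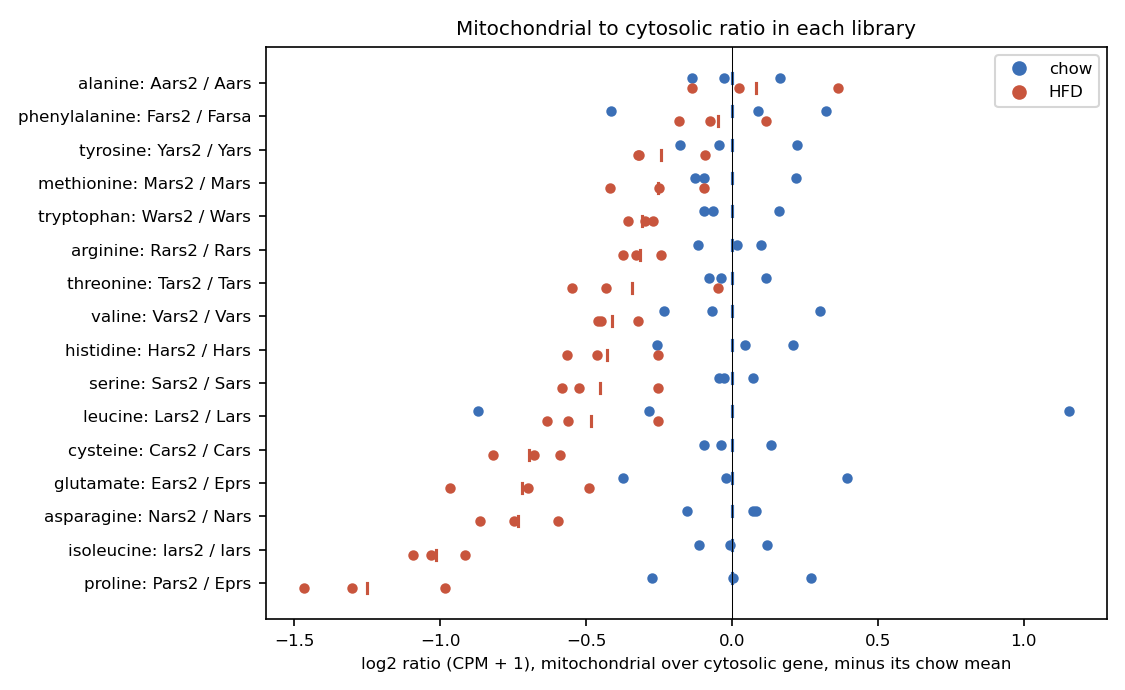
Log2 ratio of the mitochondrial to the cytosolic gene (CPM + 1) in each library minus the pair's chow mean, for 16 of the 17 pairs, chow in blue and HFD in red, with the HFD mean as a short bar. The HFD mean is below 0 in 15 of the 16 pairs shown, from -1.25 for proline to -0.05 for phenylalanine (Fars2 to Farsa), and is 0.08 for alanine.

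Of the 13 cytosolic synthetases known as ATF4 targets, 1 rose (Cars), 1 fell (Aars) and 11 did not pass, with a median of 0.06. At an unadjusted p under 0.05 the fit also held Iars and Nars, where 45.6% of all genes reached it. Other genes of the ATF4 list behaved differently among themselves. Of 24 tested, 9 rose and 2 fell, with a median of 0.35, against 19.1% of all genes called higher and 16.0% lower. Without HFD replicate 3 there were 6 rises and 1 fall. Whether the synthetases differ from the rest of the list was not tested.

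Atf4 itself was at 69.6, 49.2 and 66.7 CPM in chow and at 81.6, 99.0 and 105 CPM in HFD, with no overlap. It rose by 0.62 ± 0.17 on the log2 scale (limma adjusted p = 0.0172), a call lost without HFD replicate 2 (0.0599), HFD replicate 3 (0.0742) or chow replicate 2 (0.0536). The largest rises of the list were those of Atf3 and Ddit3, transcription factors of the stress response (2.54 and 1.56), and of Pycr1, a proline-synthesis enzyme of mitochondria (1.37). Trib3, a pseudokinase that ATF4 and Ddit3 induce, did not pass (0.12, limma adjusted p = 0.642).

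Asns, asparagine synthetase, fell although it is a classical ATF4 target. It makes the amino acid asparagine and is not a transfer RNA synthetase. Its level was 115, 109 and 87.4 CPM on chow against 45.3, 46.5 and 50.9 CPM on HFD, with no overlap and a log2 fold change of -1.10 ± 0.14 (limma adjusted p = 0.000407). Stc2, a secreted glycoprotein, was the other gene of the list that fell (-0.56). Thus Aars and Asns fell and Cars and Atf4 rose in the same 3 HFD libraries. Under scaling to the adipocyte markers Asns still fell (-0.66, limma adjusted p = 0.0234), and Aars and Stc2 did not pass. There 8 of the 13 synthetases rose and 0 fell, and 15 of the 24 other genes rose and 1 fell. Of all genes, 4701 were called higher and 451 lower under that scaling.

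**Figure D5:**
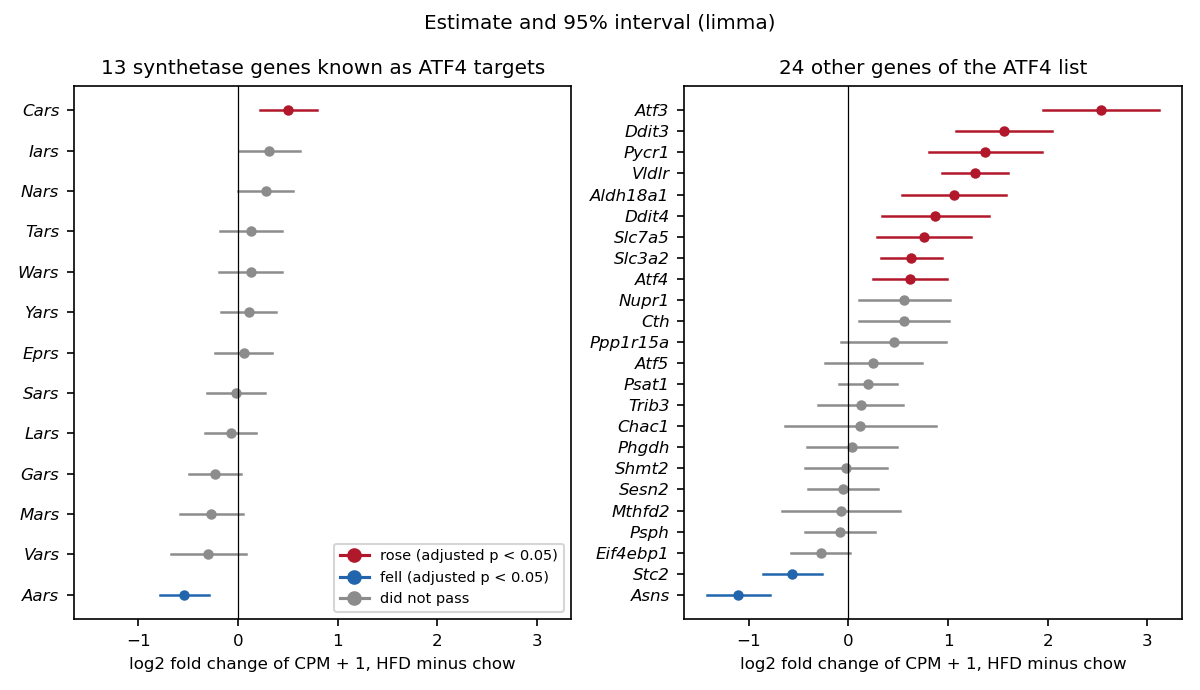
Log2 fold change of CPM + 1, HFD minus chow, with 95% intervals, for the 13 synthetase genes known as ATF4 targets (left) and the 24 other tested genes of the ATF4 list (right). On the left 1 gene rose and 1 fell, around a median of 0.06; on the right 9 rose, up to 2.54 for Atf3, and 2 fell, down to -1.10 for Asns.

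ATF4 binds, as a partner of C/EBP proteins, a composite element whose core letters are TGATGNAA. Promoter sequences of RefSeq (GRCm38.p6, 250 bases before to 50 bases after each start) were held for 28 of the 38 members and searched on both strands. The letters were found in 5 of 13 cytosolic genes (Aars, Gars, Iars, Tars and Yars), all from the ATF4 group, and in 0 of 14 mitochondrial genes. Of the 27025 genes with a promoter there, 4.51% held them. Among the 8 genes of the ATF4 group with a promoter sequence, 3 had no match, which says only that the letters are not in this window. The 5 synthetase matches and that of Asns are printed because Aars and Asns fell while the other 4 did not pass. Capitals mark the element, written as TGATGNAA or, where it lies on the other strand, as its reverse complement.
Aars: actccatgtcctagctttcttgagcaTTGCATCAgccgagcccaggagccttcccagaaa
Asns: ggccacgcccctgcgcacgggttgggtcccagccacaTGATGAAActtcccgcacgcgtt
Gars: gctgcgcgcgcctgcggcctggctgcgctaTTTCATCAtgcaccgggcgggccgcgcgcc
Tars: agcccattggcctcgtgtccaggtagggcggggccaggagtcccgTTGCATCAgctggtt
Iars: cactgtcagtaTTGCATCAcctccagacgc
Yars: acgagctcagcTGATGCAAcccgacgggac

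The stretch of Aars is chr8:111033704-111033763 on the plus strand, and its element begins 112 bases before the start used in the table. This stretch lies inside the gene span given above for Aars, so the start used here is not the start of that span. In Asns (chr6:7693210-7693269, minus strand) the element begins 23 bases before the start, in Gars (chr6:55037941-55038000, plus strand) 30 bases before it, and in Tars (chr15:11399659-11399718, minus strand) 15 bases before it. In Iars (chr13:49682126-49682155, plus strand) and Yars (chr4:129189895-129189924, plus strand) the element lies just after the start used. The Yars stretch also lies inside its gene span (chr4:129189734-129219240), so its start here is not that of the span either. Aars holds another match after its start. The fold changes of these genes ran from -1.10 (Asns) and -0.54 (Aars) through -0.23 (Gars), 0.11 (Yars) and 0.13 (Tars) to 0.32 (Iars), so the fold changes of genes with these letters lay on both sides of 0. A match of letters is a description and not evidence of binding.

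Other motifs were as follows. The E-box CACGTG was found in 4 of 13 cytosolic and 1 of 14 mitochondrial genes (8.09% of all genes), CCAAT in 7 of 13 and 6 of 14 (41.1%), and TTCNNNGAA in 2 of 13 and 1 of 14 (9.55%). The motif of NRF1, a transcription factor of nuclear genes for mitochondrial proteins, was in 3 of 13 cytosolic genes (Farsb, Kars and Tars) and 2 of 14 mitochondrial genes, against 5.19% of all genes. Those 2 mitochondrial genes, Iars2 and Mars2, are both among the 7 that fell, and the letters that matched are in capitals.
Iars2: ccgccccggaGCGCGTGCGCagttcctcgc
Mars2: ccgtccagctGCGCACGCGCcctttcccgt

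The Iars2 stretch is chr1:185329374-185329403 on the minus strand and the Mars2 stretch chr1:55237169-55237198 on the plus strand, both spanning the start. Ears2, Nars2 and Vars2, which fell as well and have a promoter sequence in the table, had no such match in the window. Of the motif matches in members, 0 overlapped another.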

How the data were processed

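The deposited table holds log2 CPM values per gene and library, a scale inferred from the values: turned back into CPM, low values are whole multiples of 1 read (100% within 0.1 of a read). HISAT2, featureCounts, Picard and edgeR, with the build mm10, are named in the submitters' processing notes. Which step each performed, and its version, is not given in the sources used here. RNA was depleted of ribosomal RNA and tagmented without strand marking, per the labels' protocols. The test plan assumed CPM, so the log2 values were turned back into CPM and log2(CPM + 1) was tested, which understates changes of low genes. Genes averaging at least 1 CPM (11643 of 11761) were fitted in R 4.3.3 with limma 3.58.1 (two-sided, diet as the only term, eBayes allowing for a mean-variance trend), with Benjamini-Hochberg adjustment over all of them. The script was tested on simulated data. Pairs were tested with exact two-sided permutation tests over the 6 libraries.

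Values in each library are given for called members and, whatever their result, for Farsa, Farsb, Kars, Gars, Qars, Eprs, Wars, Lars2 and Iars2. From other lists, up to 3 risen and 3 fallen genes are named, besides a few set in the plan. Single genes outside these (Ddx19b, Rab3gap2, Wdr25, Rn45s, Eef1a1 and Slc1a5) were chosen after their values were seen. The members, lists and tests were chosen with earlier results of these data known. Gene positions are from RefSeq for GRCm38.p6, where 37 members matched by symbol and 1 by synonym. No unmapped column of values was present. Alternatives were 2 pseudocounts or scales, 2 filters, 3 scalings, voom weights on recovered reads, no trend, a replicate block and each library left out. The 5 samples for H3K27ac and the 2 for PPARG were not analysed here, and the single values of 1 member and of 1 marker gene are not reported here.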

Additional observations from a re-analysis of the deposited data

How the results depend on the processing

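Scaling to the median adipocyte marker moved the counts most: 4701 genes higher and 451 lower in all, 11 cytosolic synthetases higher and 0 lower, and 1 mitochondrial synthetase lower. Equal totals, quantile normalization and the replicate block each gave 2 cytosolic genes higher. With each library left out in turn, counts ran from 1683 to 2102 (all genes higher), 1162 to 1740 (all lower, fewest without HFD replicate 3), 0 to 1 (cytosolic higher, 0 without HFD replicate 3), 1 to 2 (cytosolic lower, 2 without HFD replicate 1 or chow replicate 3) and 3 to 6 (mitochondrial lower, 3 without HFD replicate 2 or 3). The count of mitochondrial genes higher was 0 in every setting run. With these zeros included, 82 of the counts under alternative settings stayed within 1.5 times and 14 did not.

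The members that changed sign were not called with the deposited scaling. Under marker scaling the fold changes were Tarsl2 0.33, Vars 0.15, Hars 0.17, Mars 0.18, Gars 0.22, Qars 0.27, Farsa 0.26, Kars 0.34, Lars 0.38, Sars 0.43 (limma adjusted p = 0.0411), Fars2 0.22, Tars2 0.23, Cars2 0.24, Wars2 0.23 and Yars2 0.28. With equal totals they were Tarsl2 0.015, Lars 0.038 and Sars 0.094, and with quantile normalization Sars 0.045 and Rars2 -0.0075. With a library left out, fold changes that changed sign ranged from -0.22 (without chow replicate 1) to 0.038 (chow 2) for Kars, -0.083 (chow 1) to 0.066 (chow 3) for Sars, -0.013 (HFD 2) to 0.17 (chow 2) for Dars, -1.01 (chow 1) to 0.063 (chow 3) for Lars2 and -0.047 (HFD 2) to 0.13 (HFD 1) for Rars2. The ratios that did so ranged from -0.056 (HFD 1) to 0.19 (HFD 2) for Aars2 to Aars, -0.25 (chow 3) to 0.12 (chow 2) for Fars2 to Farsa, and -0.92 (chow 1) to 0.094 (chow 3) for Lars2 to Lars. Beyond the scalings' own shift of all genes, the cause was not tested.

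Same-numbered libraries of the diets had deviations from their diet means that correlated at 0.433, 0.232 and 0.0862 across genes. Differently numbered libraries correlated at -0.389 to 0.15. The only such value above 0 was that of chow replicate 3 with HFD replicate 2 (0.15), its best match. The labels do not say whether the numbers mark pairs. Diet was kept as the only term, and pairing was not tested. The replicate block gave 2594 genes higher and 2245 lower, 2 cytosolic genes higher (Cars and Rars) and 8 mitochondrial genes lower. The lowest count of any member in any library was 66 reads, for Pars2, and the part of depth in these values was not tested. Intervals cover counting and library spread in 6 libraries only.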

Other observations

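Amino acid transporters, among them carriers of substrates of the synthetases, were a list not described above. Of 16 tested, 7 rose and 1 fell in HFD (limma, Benjamini-Hochberg adjusted over all genes), with a median log2 fold change of 0.51, against 19.1% of all genes called higher and 16.0% lower. The summed level of the list did not rise, at 2300 to 2874 CPM in chow and 1950 to 2378 CPM in HFD. Slc1a5 had the highest CPM of the list, a mean of 2074 in chow and 1569 in HFD. Every HFD library of it lay below every chow library, but it did not pass (-0.40, limma adjusted p = 0.0849). The largest rises were those of Slc38a1 and Slc38a2, sodium-coupled carriers of small neutral amino acids (1.81 and 1.10), and of Slc6a6, the taurine carrier (1.47). Slc38a2 was at 36.3, 37.5 and 32.7 CPM in chow and at 68.6, 64.0 and 104 CPM in HFD, with no overlap between diets. The gene that fell, Slc43a1, a carrier of large neutral amino acids, was at 41.1, 43.4 and 72.5 CPM in chow and at 9.71, 6.15 and 9.19 CPM in HFD, a log2 fold change of -2.49 ± 0.25 (limma adjusted p = 0.00011). Under scaling to the adipocyte markers 11 rose and Slc43a1 still fell (-2.06), where, of all genes, 4701 were called higher and 451 lower. The count of rises was 5 without HFD replicate 1 or chow replicate 1 and 4 without HFD replicate 2 or 3. Macrophage, endothelial and smooth muscle markers rose in the same libraries, and their part in these values was not tested.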
